A study of Mus musculus with 11 samples.

Results

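Macrophages of the vessel wall were followed through 34 genes in bulk RNA sequencing of the mouse aortic arch at postnatal day 11. The genes were listed by symbol, with earlier results of these data known. All 34 symbols were found among the 48709 mouse gene rows of the count table. The arches came from 5 wild-type mice (Tgfbr2-+/+, WT) and 6 littermates that carry the G357W substitution on 1 Tgfbr2 allele (Tgfbr2-G357W/+, Het), which models Loeys-Dietz syndrome, an inherited connective tissue disorder with aneurysms of the aorta. The labels list no treatment and give neither sex nor strain, and each library was taken as 1 animal, since the series text counts as many mice as there are libraries. For cell type they give smooth muscle (VSMC) and endothelium (EC), although the RNA came from whole dissected arches.

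Macrophages settle in the aortic wall before and around birth, mostly in the adventitia, and are replenished to a varying extent by blood monocytes. Their lineage depends on the transcription factor PU.1 (Spi1) and on the receptor Csf1r, which binds the growth factor Csf1, a product mainly of stromal and vascular cells. They clear dying cells through receptors such as Mertk, sample immune complexes through Fc receptors, make the complement protein C1q, and resident populations carry scavenger receptors such as Mrc1 and Cd163.

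Total counts per library were 13113467 to 19327935, and the limit allowed by a count of 0, taken as 3 counts, ranged from 0.155 to 0.229 CPM (counts scaled to library size). Libraries WT 1 and WT 2 stood apart on the first principal component of all tested genes, at 49.7 and 47.1 against -29.1 to 16.4 for the other 9. Xist, the transcript of the inactive X chromosome, had at least 100 counts in Het 1, Het 2 and every WT library but fewer in Het 3 to 6, so sex is partly confounded with genotype. WT could be compared with Het 1 and Het 2 alone, and in Het 3 to 6 the effects of sex and genotype cannot be told apart.

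The macrophage genes were detected at low levels beside the vessel's own cells. Together the 34 genes made up 161 to 432 CPM in WT and 239 to 535 CPM in Het, against at least 30371 CPM in any library for 6 smooth muscle genes. Mean levels were below 1 CPM for 8 of the 34. In at least 1 library, 5 had 0 counts: Fcgr1, Trem2, Siglec1, Timd4 and Ms4a7. The lineage markers Csf1r, Cd68, Adgre1, Lyz2, the C1q chains and Tyrobp had counts in every library, which bears out the label by detection only. Markers of other blood cells varied in level. Red cell genes were abundant: the haemoglobin chain Hba-a1 was at 98.2 to 254 CPM in WT and 58.1 to 150 CPM in Het, although the 6 tested red cell and platelet genes gave no call by edgeR's test (unadjusted p under 0.05 for 1 with Het higher and 2 with Het lower). The mast cell protease Cma1 lay at 4.55 to 19.2 CPM in WT and 3.17 to 14.4 CPM in Het. The lymphocyte genes Ighm and Lck lay at 5.29 to 13.2 and 5.61 to 8.63 CPM, and at 2.01 to 4.70 and 1.35 to 16.7 CPM. Csf1r lay at 8.83 to 22.4 CPM in WT and 10.7 to 20.4 CPM in Het. Cma1 overlapped this range in both groups, Ighm only in WT and Lck only in Het. All 10 neutrophil genes of a comparison list had means under 1 CPM, and Ly6c2, a marker of inflammatory monocytes, did not exceed 0.103 CPM.

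Levels of different genes were compared per kilobase of exon. Lyz2, which encodes the phagocyte lysozyme, was the most abundant at 73.1 ± 27.1 CPM per kb (SD over 11 libraries), followed by Pf4, a chemokine shared by platelets and resident macrophages, at 32.2 ± 12.9 CPM per kb. C1qb (19.6 ± 9.31 CPM per kb), Tyrobp (15.2 ± 5.05 CPM per kb) and Fcer1g (13.3 ± 4.31 CPM per kb) came next. From Pf4 to Fcer1g, each differed from its neighbour in this order by less than the larger of their SDs, whereas Lyz2 stood 1.51 SDs above Pf4. The lowest were Ccr2, the receptor of recruited monocytes, at 0.119 ± 0.0491 CPM per kb and Siglec1, the sialic acid receptor of some resident macrophages, at 0.0212 ± 0.0248 CPM per kb. Of 3 platelet genes measured beside Pf4, Ppbp did not exceed 0.205 CPM in any library, while Itga2b lay at 1.61 to 5.35 CPM and Gp1bb at 0.672 to 2.30 CPM. The part of platelets in the level of Pf4 was not tested.

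Promoters are shown for 3 genes picked as examples that hold the PU.1 motif, after the matches were seen, and for the 2 that rose in Het (below), because PU.1 is the textbook regulator of macrophage genes. Each line is the 250 bases before the RefSeq start of the gene in GRCm38, read 5′ to 3′ on the gene's strand. Capitals mark GAGGAA, the core of the PU.1 motif, on either strand (TTCCTC when read on the other strand), and the longer form GAGGAAGT (ACTTCCTC) where it occurs. The windows are chr4:136892915-136893164 (minus strand) for C1qc, chr5:90772185-90772434 (plus strand) for Pf4, chr11:69666171-69666420 (minus strand) for Cd68, chr3:107760470-107760719 (minus strand) for Csf1 and chr2:128698665-128698914 (plus strand) for Mertk.
C1qc: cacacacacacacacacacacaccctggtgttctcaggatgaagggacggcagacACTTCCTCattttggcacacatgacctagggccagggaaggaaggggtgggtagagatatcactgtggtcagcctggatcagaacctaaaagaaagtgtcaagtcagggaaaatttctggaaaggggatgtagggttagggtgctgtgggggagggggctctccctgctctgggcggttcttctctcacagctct
Pf4: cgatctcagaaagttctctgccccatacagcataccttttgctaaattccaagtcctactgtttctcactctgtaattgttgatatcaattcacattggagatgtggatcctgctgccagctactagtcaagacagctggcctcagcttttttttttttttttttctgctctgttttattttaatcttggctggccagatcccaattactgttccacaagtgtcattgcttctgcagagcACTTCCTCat
Cd68: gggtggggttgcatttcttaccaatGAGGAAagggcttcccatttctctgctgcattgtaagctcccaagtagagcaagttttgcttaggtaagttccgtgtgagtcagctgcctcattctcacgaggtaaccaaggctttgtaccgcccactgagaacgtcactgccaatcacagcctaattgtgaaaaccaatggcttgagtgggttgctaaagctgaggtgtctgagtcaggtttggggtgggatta
Csf1: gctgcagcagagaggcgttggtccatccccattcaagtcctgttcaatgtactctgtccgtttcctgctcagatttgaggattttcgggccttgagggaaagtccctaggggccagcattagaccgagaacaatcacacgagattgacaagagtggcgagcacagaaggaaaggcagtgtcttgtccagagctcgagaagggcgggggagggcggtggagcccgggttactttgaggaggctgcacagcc
Mertk: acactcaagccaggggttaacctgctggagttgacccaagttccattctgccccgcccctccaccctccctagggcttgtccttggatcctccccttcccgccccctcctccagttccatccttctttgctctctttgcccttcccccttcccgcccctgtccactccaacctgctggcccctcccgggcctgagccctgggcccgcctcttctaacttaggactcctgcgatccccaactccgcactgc

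RefSeq windows of 300 bases, from 250 before to 50 after the start, were on hand for 26 of the 34 genes. GAGGAA lay in the window of 16 of these 26 (61.5%), and of 31.3% of all 27025 genes with a window. Its longer form GAGGAAGT, which contains GAGGAA, lay in 4 of the 26 (15.4%), C1qc, Pf4, Cd53 and F13a1, and in 3.69% of all genes. Neither form lay in the windows of Csf1 and Mertk. A match is a string of letters, and no binding was measured.

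The comparison of Het with WT asks whether macrophage genes differ when 1 Tgfbr2 allele is mutant. Of the 34 genes, 30 had enough counts to be tested by edgeR's quasi-likelihood test over 14757 genes, called where the p adjusted by Benjamini and Hochberg was under 0.05. Csf1 and Mertk rose, and none fell. Of all tested genes 5.03% passed in either direction, 2.65% as higher and 2.38% as lower in Het, so the 2 of 30 are close to that background. Before adjustment, 4 had p under 0.05, all higher in Het (9.55% of all tested genes), and none lower (9.85%). DESeq2 and limma voom each called 2 higher and 0 lower as well, where DESeq2 called 4.43% of all genes as higher. Without WT 1 and WT 2, none of 31 tested passed as higher, beside 1.57% of all genes.

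Csf1, the growth factor on which tissue macrophages depend, was at 9.38, 12.0, 11.5, 16.1 and 15.6 CPM in WT 1 to 5. In Het the lowest library held 15.6 CPM, the median was 20.4 CPM and the highest 23.3 CPM. Of the 6 Het libraries, 5 lay above every WT library, and Het 6 lay between WT 4 and WT 5. The mean was 12.9 ± 2.87 CPM for WT (SD, n = 5) against 19.9 ± 2.59 CPM for Het (SD, n = 6). This is a log2 fold change of 0.62 ± 0.15 (SE), or 1.54-fold (adjusted p = 0.028, edgeR). It no longer passed when any of WT 1, WT 2, WT 3, Het 1, Het 2, Het 3 and Het 5 was dropped (adjusted p 0.0517 to 0.0734). It also missed the threshold with a sex score as a covariate (log2 fold change 0.68, adjusted p = 0.197).

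Mertk, the receptor tyrosine kinase by which macrophages and other cells take up apoptotic cells, was at 21.1, 23.0, 26.4, 23.4 and 21.04 CPM in WT 1 to 5. In Het it ranged from 29.2 to 41.0 CPM around a median of 32.6 CPM. All 6 Het libraries lay above all 5 WT libraries. Mertk was the 1 gene of the 34 whose groups did not overlap, and 2.41% of all tested genes had such a gap with Het higher and 2.2% with Het lower. The mean was 23.0 ± 2.21 CPM for WT (SD, n = 5) against 33.4 ± 4.24 CPM for Het (SD, n = 6). This is a log2 fold change of 0.54 ± 0.11 (SE), or 1.45-fold (adjusted p = 0.00979, edgeR). Leaving out any single library kept the call (adjusted p 0.0111 to 0.0269). Mertk also passed with the sex score (0.70, adjusted p = 0.0286), but not in the libraries with at least 100 Xist counts (0.73, adjusted p = 0.0944) or without WT 1 and WT 2 (0.50, adjusted p = 0.0574).

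**Figure D1:**
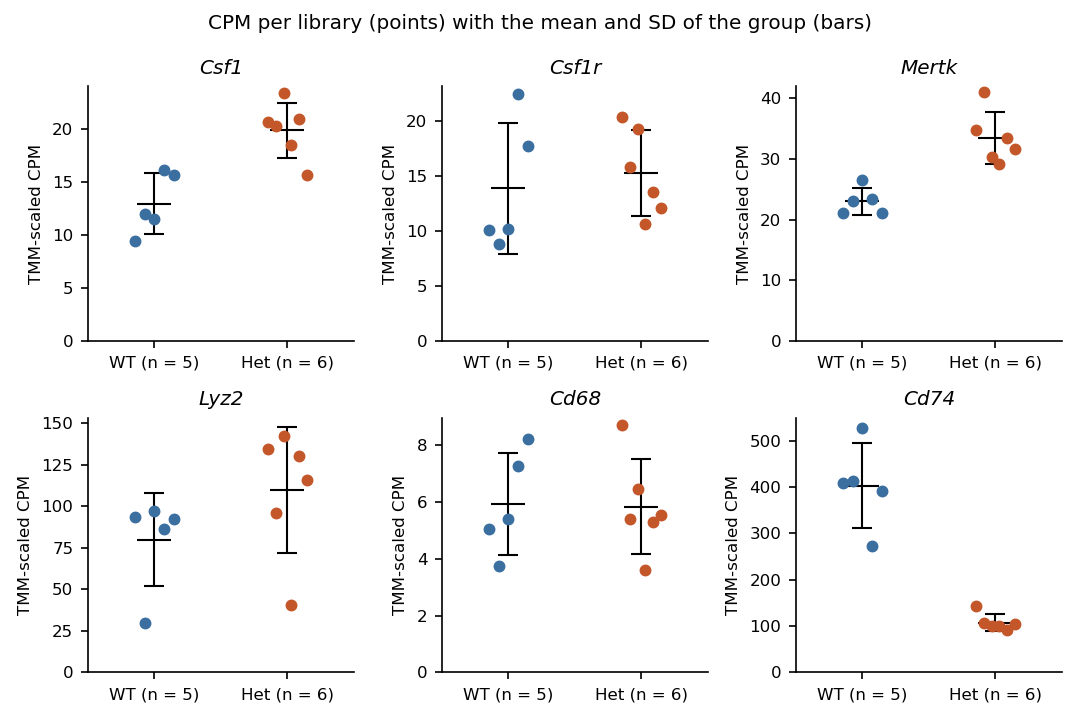
CPM scaled by TMM (linear axes from 0) of Csf1, its receptor Csf1r, Mertk, the macrophage markers Lyz2 and Cd68, and the MHC class II invariant chain Cd74; points are libraries and bars the mean and SD of 5 WT and 6 Het libraries. Mertk lies at 29.2 CPM or more in Het and at most 26.4 CPM in WT, Csf1 overlaps at the lowest Het library, Csf1r, Lyz2 and Cd68 overlap widely, and Cd74 is lower in every Het library.

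The receptor for Csf1 did not pass with its ligand. Csf1r was at 10.1, 8.83, 10.1, 22.4 and 17.8 CPM in WT 1 to 5, and at 10.7 to 20.4 CPM with a median of 14.7 CPM in Het. Its Het values all fell within the WT range. The log2 fold change was 0.15 (95% interval -0.38 to 0.67, adjusted p = 0.81), and it was -0.13 without WT 1 and WT 2. Whether ligand and receptor differed from each other was tested as the log2 ratio of their counts within each library. This ratio of Csf1 to Csf1r averaged -0.03 ± 0.35 for WT (SD, n = 5) against 0.41 ± 0.27 for Het (SD, n = 6). The difference of 0.44 ± 0.19 (SE) had p = 0.0433 by a two-sided exact permutation test and 0.0649 when adjusted over the 3 gene ratios tested. It passed when WT 2 or Het 1 was left out (adjusted p = 0.0286 and 0.0476, exact permutation test). For Mertk against Csf1r the difference was 0.33 ± 0.32 (exact permutation p = 0.29, adjusted 0.29), so a rise of Mertk beyond that of Csf1r was not shown. Reads of Csf1r and of Hmgxb3, which overlaps it on the other strand with 200 to 582 counts per library, cannot be told apart where their exons overlap, because the libraries do not mark strand.

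Spi1, the transcription factor PU.1, was scarce, with 1 to 30 counts per library. It was at 0.264, 0.134, 0.513, 1.47 and 0.895 CPM in WT 1 to 5 and at 0.0768 to 2.21 CPM in Het. Its log2 fold change of 0.94 had a 95% interval from -0.40 to 2.28 (adjusted p = 0.453).

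Of 9 classical macrophage and leukocyte markers, none passed, and none had an unadjusted p under 0.05. Lyz2 was at 93.6, 30.0, 97.1, 86.3 and 92.4 CPM in WT 1 to 5 and at 40.5 to 142 CPM in Het, with a median of 123 CPM. Of the Het libraries, 4 lay above all WT libraries, while Het 4 lay below 4 of the 5. The log2 fold change of Lyz2 was 0.46 ± 0.34 (SE, adjusted p = 0.511). Lyz1, its near-identical neighbour, had 13 to 130 counts per library, and reads could be split between them. Cd68, the lysosomal glycoprotein used to stain macrophages, had nearly equal means of 5.92 ± 1.79 CPM (WT, SD) and 5.83 ± 1.68 CPM (Het, SD; log2 fold change -0.02, 95% interval -0.53 to 0.49, adjusted p = 0.982). Adgre1, the F4/80 antigen, ranged from 1.40 to 10.05 CPM in WT and from 2.61 to 18.7 CPM in Het (log2 fold change 0.73, 95% interval -0.28 to 1.73). Ptprc, the pan-leukocyte antigen CD45, lay at 0.936 to 3.70 CPM in WT and 0.768 to 5.39 CPM in Het (log2 fold change 0.13 ± 0.46). Laptm5, a lysosomal membrane protein of blood cells, had 0.31 ± 0.27, and the leukocyte tetraspanin Cd53 had 0.35 ± 0.33. Cd52, a small leukocyte surface glycoprotein, had -0.29 ± 0.38, Aif1, the actin-binding protein Iba1, had 0.28 ± 0.48, and the integrin subunit Itgam (CD11b) had 0.59 ± 0.52.

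Fc receptors and their adaptors lay higher on average in Het without passing. Tyrobp and Fcer1g, the adaptors that couple activating receptors to kinases, had log2 fold changes of 0.43 ± 0.28 and 0.25 ± 0.25 (SE). Fcgr3, a low-affinity IgG receptor, had 0.37 ± 0.28. Cybb, the catalytic subunit of the phagocyte NADPH oxidase, had 0.15 ± 0.44. The high-affinity IgG receptor Fcgr1 was not tested: it had 0 to 16 counts per library and 0 in 3 libraries.

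The 3 chains of C1q, the starter of the classical complement pathway, are encoded next to each other on chromosome 4 between positions 136880129 and 136898803 of GRCm38. C1qb was at 18.1, 11.3, 16.3, 37.2 and 18.9 CPM in WT 1 to 5 and at 9.83 to 38.1 CPM in Het, with a median of 18.4 CPM. Its groups overlapped across nearly their whole range. The log2 fold changes were 0.12 ± 0.36 for C1qb, 0.34 ± 0.35 for C1qa and 0.43 ± 0.34 for C1qc (SE), with adjusted p of 0.906, 0.659 and 0.547.

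Sensors of microbial and lipid ligands differed in sign. Cd14, a co-receptor for lipopolysaccharide, averaged 5.58 ± 1.84 CPM over WT and 8.54 ± 3.66 CPM over Het (SD; log2 fold change 0.62 ± 0.30, adjusted p = 0.282). Trem2, a lipid receptor that signals through Tyrobp, was at 1.98, 0, 3.38, 1.17 and 0.821 CPM in WT 1 to 5 and at 0.148 to 1.35 CPM in Het. It had the lowest log2 fold change of the tested genes, -1.14, with a 95% interval from -2.65 to 0.36 (adjusted p = 0.409). Ly86, a partner of the Toll-like receptor homologue RP105, was not tested and had 2 to 37 counts per library.

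Receptors of resident macrophages included the 2 genes with the smallest p after Csf1 and Mertk. Cd163, the haemoglobin scavenger receptor, was at 2.84, 2.61, 2.15, 5.94 and 3.36 CPM in WT 1 to 5 and at 3.31 to 6.71 CPM with a median of 4.96 CPM in Het. Mrc1, the mannose receptor, was at 8.33, 4.01, 3.54, 8.66 and 9.48 CPM in WT 1 to 5 and at 4.45 to 15.2 CPM with a median of 10.9 CPM in Het. In WT, library 4 was the highest for Cd163 and library 5 for Mrc1, and 2 and 4 of the Het libraries lay above all WT libraries for Cd163 and Mrc1. The log2 fold changes were 0.59 ± 0.27 for Cd163 and 0.67 ± 0.31 for Mrc1, with adjusted p of 0.238 and 0.254. Cd163 passed when WT 4 was left out (0.89, adjusted p = 0.0441).

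F13a1, the transglutaminase coagulation factor XIII A made by resident macrophages, was at 36.8, 19.7, 36.2, 76.5 and 66.2 CPM in WT 1 to 5. In Het it lay between 45.2 and 99.1 CPM with a median of 66.8 CPM (log2 fold change 0.53 ± 0.30, adjusted p = 0.369). WT 1, 2 and 3 lay below all Het libraries, and WT 4 and WT 5 within their range. Pf4 divided the WT group in another way, with 8.92 and 5.35 CPM in WT 1 and WT 2 and 25.8, 31.9 and 25.3 CPM in WT 3 to 5. Its Het libraries lay at 15.6 to 33.6 CPM, and its log2 fold change was 0.44 ± 0.38 (adjusted p = 0.594). Without WT 1 and WT 2 the log2 fold change of Pf4 was -0.07. Folr2, the folate receptor of resident macrophages, had 0.57 ± 0.54 and Ms4a7, a membrane protein of the same cells, had 0.09 ± 0.57. Timd4, a phosphatidylserine receptor of long-lived resident macrophages, and Siglec1 were not tested and had 0 counts in 3 and 4 libraries, with at most 21 and 7 counts in any.

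The chemokine receptors Cx3cr1, found on resident and patrolling cells, and Ccr2 had log2 fold changes of -0.51 ± 0.44 and 0.38 ± 0.44 (SE). Both had adjusted p above the threshold, 0.585 and 0.705, and at most 57 and 17 counts in any library.

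**Figure D2:**
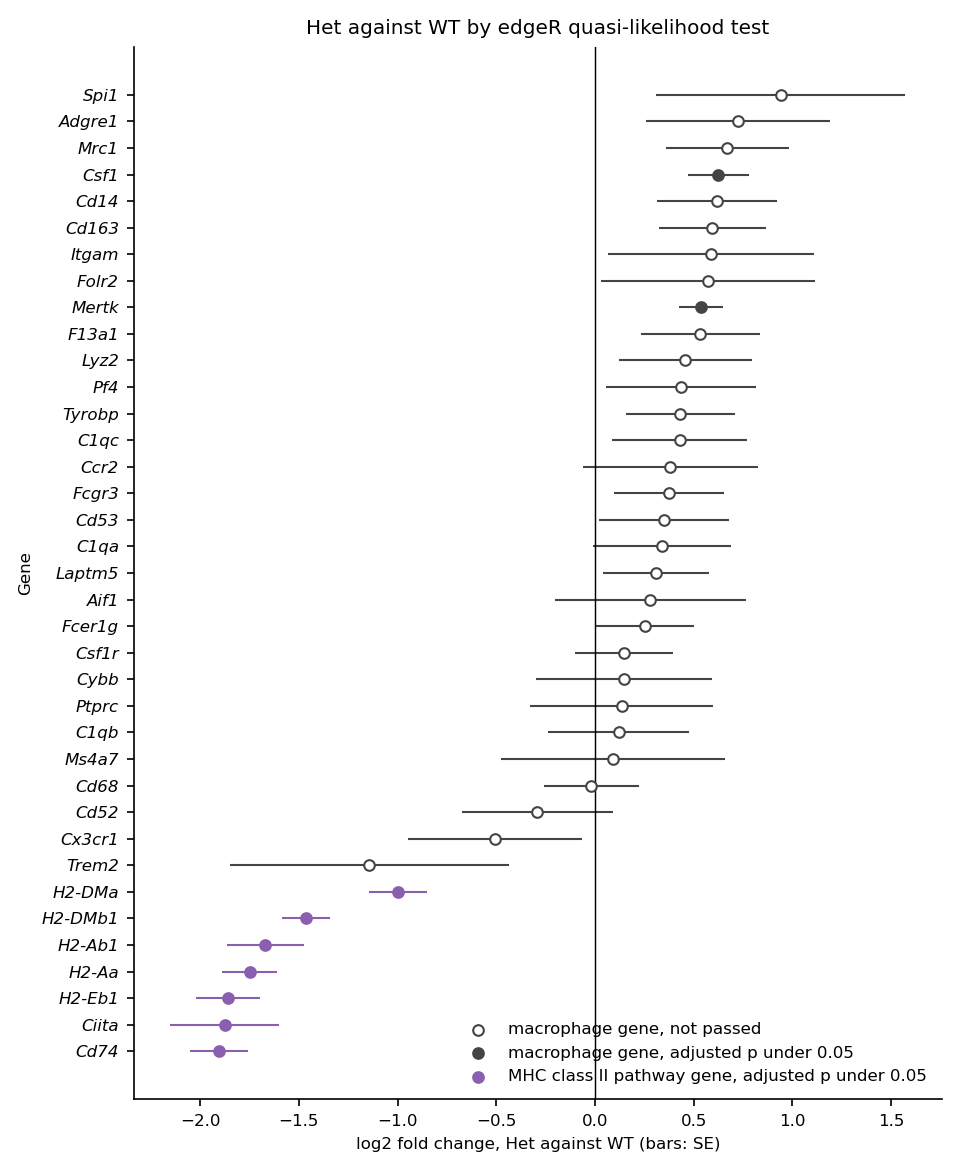
Log2 fold change of Het against WT (x axis; bars, SE) of the 30 tested macrophage genes and 7 MHC class II pathway genes, sorted within each set; filled points passed (adjusted p under 0.05, edgeR). Csf1 (0.62) and Mertk (0.54) are the filled macrophage genes, and all 7 class II genes are filled and lie between -1.90 and -0.999.

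Seen as a whole, 26 of the 30 tested genes lay above 0 in log2 fold change and their median was 0.38, beside 49.2% of all tested genes with a positive value and a median of -0.0046. This lean was smaller without WT 2, where the median was 0.20 with 23 of 31 positive. Without both WT 1 and WT 2 it was 0.066 with 19 of 31 positive. Leaving out any other library gave medians of 0.27 to 0.51. In bulk RNA, fewer cells of a type and less RNA per cell cannot be told apart, so these values do not say whether the number of macrophages or their transcripts per cell varied.

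**Figure D3:**
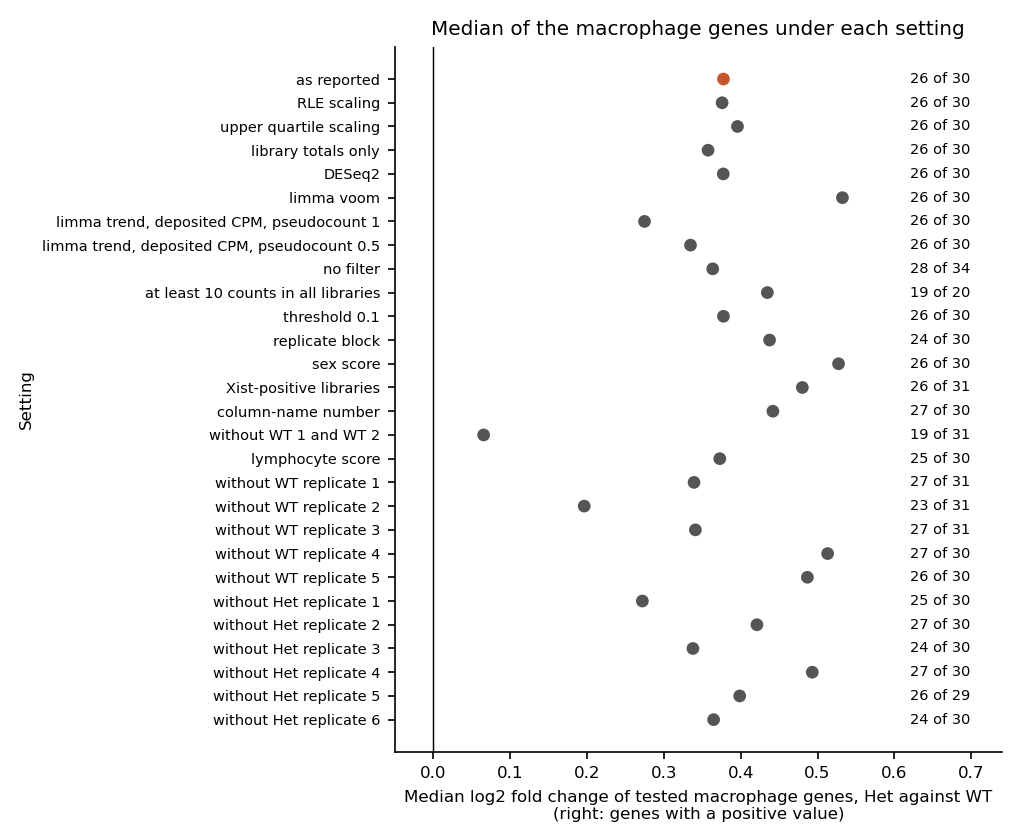
Median log2 fold change (x axis) of the tested macrophage genes for Het against WT as reported and under each setting but the macrophage score (rows), with the number of genes above 0 at the right. The median is 0.38 as reported, 0.20 without WT 2 and 0.066 without WT 1 and WT 2.

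The genes varied together across libraries around the means of their groups. Both genotypes were pooled for this, so neither was followed alone. WT 2 and Het 4 lay farthest from their group means, at -0.86 and -0.87 in average log2 CPM. After subtraction of each group's mean, the median correlation between 2 of the 30 genes was 0.57 over 11 libraries, and 404 of 435 pairs were positive. These points share library and depth, and the values are descriptive. Relative to the mean of all libraries, the average log2 CPM of the 30 genes was lowest in WT 2 (-1.05) and Het 4 (-0.72) and highest in Het 1 (0.58), Het 3 (0.49) and WT 4 (0.45). WT 2 held the lowest value of 14 genes and Het 4 of 8, while Het 1 held the highest value of 10 and Het 3 of 8. C1qc (r = 0.97), Adgre1 (0.94), Cd68 (0.92), Spi1 (0.91), Tyrobp (0.90) and C1qa (0.90) followed the average of the other 29 genes most closely. The 2 genes that rose followed it less: r was 0.47 for Csf1 and 0.13 for Mertk. Some uncalled genes also had r below that of Csf1: Ccr2 and Trem2 (0.44 each), Cybb (0.43), Cx3cr1 (0.37) and Itgam (0.05, the lowest). With the average of the other 28 genes as a covariate, the log2 fold change was 0.56 for Csf1 (adjusted p = 0.0507) and 0.53 for Mertk (adjusted p = 0.0201).

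**Figure D4:**
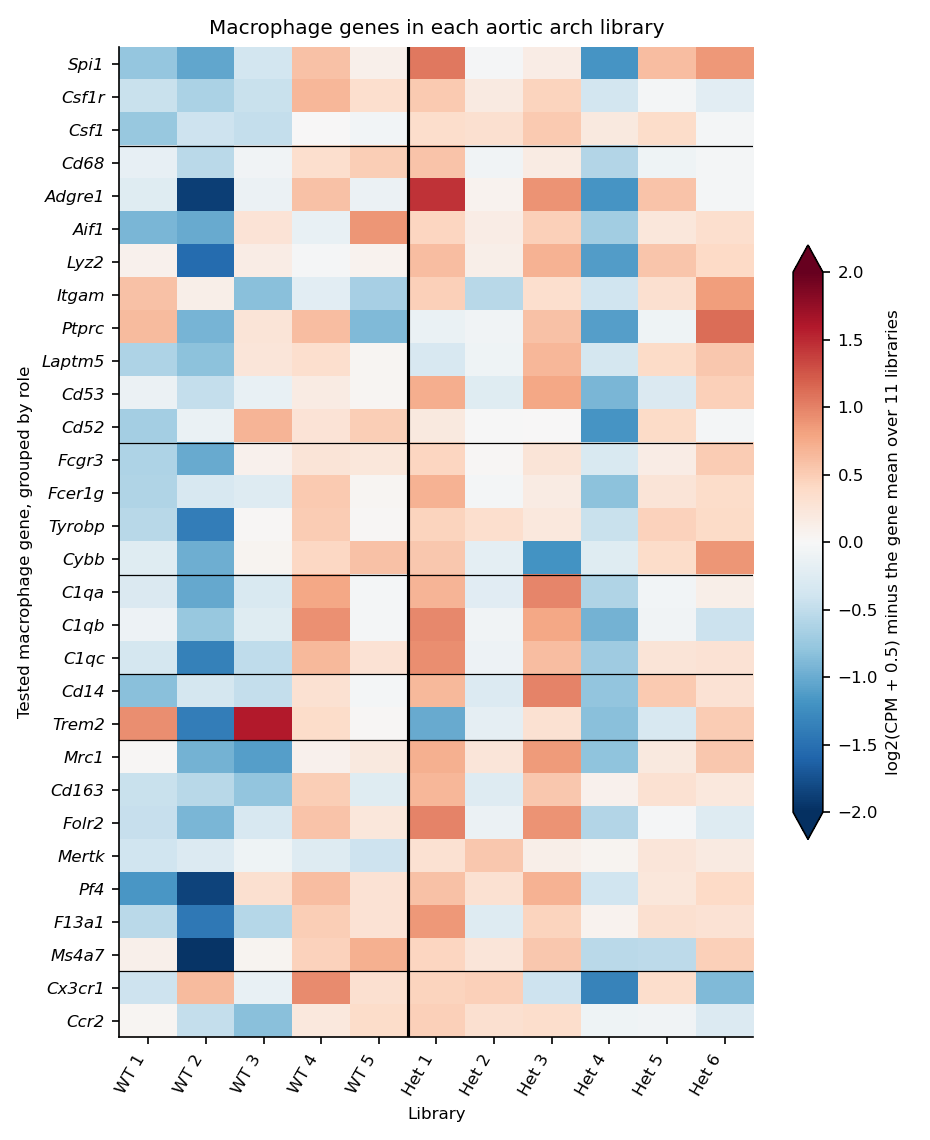
Each cell shows log2(CPM + 0.5) of a gene (rows, grouped by role between thin lines) in a library (columns; the thick line parts 5 WT from 6 Het) minus that gene's mean over the 11 libraries; red is higher and blue lower. WT 2 and Het 4 are blue for most genes, Het 1 and Het 3 are red for most, and Mertk lies below its mean in all 5 WT and above it in all 6 Het libraries.

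Genes outside the list with the most similar course over the 11 libraries included some with immune functions, and the cells they came from were not measured. Ranked by correlation with the average among 13878 genes of at least 1 CPM, the first 8 were Ltc4s (r = 0.97), Apod (0.96), Itm2a (0.95), Mgl2 (0.95), Ly6a (0.94), C2 (0.94), Myo5b (0.93) and Dpep1 (0.91). Ltc4s makes leukotriene C4, Mgl2 is a lectin of macrophages and dendritic cells, and C2 is a complement component. Dpep1, a membrane dipeptidase, was the only one of these 8 that passed between genotypes (log2 fold change 0.91, adjusted p = 0.028). Markers of several other cell types moved along. For adventitial fibroblasts, the average of 6 such genes had r = 0.86 with the macrophage genes, and their summed level was 1417 to 2202 CPM in WT and 1454 to 2353 CPM in Het. The same r was 0.70 for mast cell genes, 0.70 for red cell and platelet genes, 0.51 for dendritic cell genes, 0.47 for lymphocyte genes, 0.44 for neutrophil genes, 0.45 for fat, 0.32 for endothelium, 0.16 for skeletal muscle, -0.02 for nerve and -0.32 for smooth muscle. Summed levels were 20.3 to 46.0 CPM in WT and 14.1 to 37.3 CPM in Het for the mast cell list, and 202 to 504 and 117 to 296 CPM for the red cell and platelet list. Of the 6 fibroblast genes none rose and 1, Pi16, fell (-0.62 ± 0.10, adjusted p = 0.00194); 2 had positive values, and the median log2 fold change was -0.02. The part of these cells in the levels of the macrophage genes was not tested.

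Wider lists of the same pathways gave few calls. They share genes with the 34: 2 on the Csf1 receptor axis, 5 in Fc receptor signalling and 6 among resident markers. The NADPH oxidase, monocyte and lysosomal lists share 1 each, and the complement and uptake lists 4 each. Of 7 tested genes on the Csf1 receptor axis, Csf1 was the only one that passed. Il34, the other ligand of Csf1r, ranged from 0.330 to 1.87 CPM over WT and from 0.162 to 2.07 CPM over Het, with a log2 fold change of 0.32 and an adjusted p of 0.826. None of 11 tested Fc receptor and adaptor signalling genes, 6 NADPH oxidase genes, 11 resident macrophage markers and 6 monocyte markers passed, by edgeR's quasi-likelihood test. Before adjustment, 0, 1, 3 and 1 of them had p under 0.05 with Het higher, and 0 in each list with Het lower. The 3 resident markers include Cd163 and Mrc1, already counted among the 34 genes. Abundance within the last 2 lists differed widely. Of the monocyte markers, Fn1 lay at 445 to 500 CPM in WT and 478 to 635 CPM in Het. Vcan lay at 94.7 to 108 and 72.9 to 111 CPM, whereas Ccr2 did not exceed 1.25 CPM. Of the resident markers, Cbr2 lay at 475 to 563 and 437 to 519 CPM. The part of other cells in these levels was not tested, and the 2 lists need not follow monocytes or resident macrophages alone.

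Among 11 tested genes of apoptotic cell uptake and scavenging, 2 rose and none fell, beside 2.65% and 2.38% of all tested genes. These were Mertk, already counted among the 34 genes, and Mfge8, the secreted bridging protein between dying cells and integrins. Mfge8 was at 361 to 416 CPM in WT and 533 to 676 CPM in Het, with no overlap (log2 fold change 0.62 ± 0.08, adjusted p = 3.52e-04). Such a gap with Het higher was seen in 2.41% of all tested genes. All 34 macrophage genes together made up 161 to 432 CPM in WT and 239 to 535 CPM in Het. The part of other cells in the level of Mfge8 was not tested. The Mertk ligands Gas6 (-0.37, adjusted p = 0.277) and Pros1 (-0.10, adjusted p = 0.634) and the related receptor Axl (-0.10, adjusted p = 0.533) did not pass. The median of these 11 was 0.28. Of 14 tested complement genes, 1 fell and none rose, beside 2.38% and 2.65% of all tested genes. This was Cd55, a cell surface brake on complement, which averaged 58.8 ± 13.7 CPM over WT and 29.0 ± 6.38 CPM over Het (SD; log2 fold change -1.02 ± 0.18, adjusted p = 0.00325). Among lysosomal genes, Ctsb, the protease cathepsin B, which most cells express, fell (-0.54 ± 0.07, adjusted p = 3.63e-04), and none rose.

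Antigen presentation genes, which macrophages share with dendritic and B cells, moved differently from the macrophage markers. All 7 tested MHC class II pathway genes fell, with changes of -1.90 to -0.999 on the log2 scale, beside 2.38% of all tested genes called lower. Their summed level was 527 to 902 CPM in WT and 176 to 271 CPM in Het. With the sex score as a covariate 6 of the 7 still passed (-1.98 to -1.28), and H2-DMa, a chaperone subunit of peptide loading, did not (-0.87, adjusted p = 0.0828). All 7 passed without WT 1 and WT 2. Within each library, the log2 ratio of Cd74 to Csf1r averaged 4.93 ± 0.89 for WT (SD, n = 5) against 2.84 ± 0.31 for Het (SD, n = 6). All 6 Het ratios lay below all 5 WT ratios. The difference of -2.09 ± 0.42 (SE) had p = 0.00433 by a two-sided exact permutation test, the smallest p this design allows, and 0.013 adjusted over 3 ratios. It was -1.75 without WT 1 and WT 2. With the average of 28 macrophage genes as a covariate, the log2 fold change of Cd74 was -1.89 (adjusted p = 1.66e-05) and that of Ciita, the master regulator of class II genes, -1.86 (adjusted p = 0.00193). The average of the class II genes followed that of the macrophage genes with r = 0.20 over the 11 libraries. Dendritic cells and lymphocytes were followed by 2 lists. The lymphocyte list holds T and natural killer cell genes, such as Lck, beside B cell genes, so it does not follow B cells alone. Of 11 dendritic cell genes, 8 had means under 1 CPM and 0 of 4 tested passed. Of 15 lymphocyte genes, 7 had means under 1 CPM, Klrb1c was at 0 in every library and 0 of 9 tested passed by edgeR's test. In both lists 0 genes had an unadjusted p under 0.05. Their summed levels were 20.3 to 27.2 CPM in WT and 17.2 to 28.01 CPM in Het for the dendritic cell list, and 15.5 to 26.7 and 12.3 to 46.0 CPM for the lymphocyte list. Much of the dendritic cell sum was 1 gene, Zbtb46, at 12.0 to 22.5 CPM in WT and 9.07 to 21.8 CPM in Het. That sum therefore says little about the other dendritic cell genes. The part of dendritic cells and lymphocytes in the fall of class II genes was not tested.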

How the data were processed

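RNA of 11 aortic arches was sequenced, per the labels' protocols, from unstranded Nextera XT libraries as single reads. The submitters' processing notes list GRCm38, STAR 2.5.2a, limma, edgeR and DESeq2 without their roles, and no source used here gives the counter. The authors deposited whole-number counts per gene, which were used for the main tests, and a TMM-scaled CPM signal, which served for 2 alternatives. The 24 rows that are no mouse genes held 4 to 11 counts per library and were left out.

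Genes were kept by filterByExpr (minimum count 10, total 15), scaled by TMM and tested for Het against WT in all 11 libraries by edgeR's robust quasi-likelihood test (edgeR 4.0.16, R 4.3.3), Benjamini-Hochberg adjusted over 14757 genes. CPM values carry the TMM factors, and CPM per kb divides by the union of GENCODE M21 exons. SE is the log2 fold change divided by the square root of F. In simulated counts of Het against WT for 14757 genes, the test found 43.3% of the 67 genes given a 1.5-fold change, 64.2% of the 67 given 2-fold and 95.5% of the 66 given 4-fold. The changed genes were drawn at random from all tested genes, and the share found among the macrophage genes alone was not simulated. The SE of the 30 tested macrophage genes had a median of 0.35 and reached 0.71.

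The members and lists were chosen with earlier results of these data known, and the 3 gene ratios and the macrophage score after values were seen. All members were named; genes of other lists were named if they passed the test (an item of the lysosomal list is not reported here), and the 8 genes that correlated best with the members. Il34, Gas6, Pros1, Axl, Ppbp, Itga2b, Gp1bb, Hba-a1, Cma1, Ighm, Lck, Ly6c2 and Klrb1c fall outside that rule and were chosen after their values were seen. So were Fn1, Vcan, Cbr2 and Zbtb46. In the tissue lists, smooth muscle Cnn1 (-0.51 ± 0.13, SE) and skeletal muscle Tnni2 (-2.86 ± 0.51) and Tnnt3 (-1.63 ± 0.23) also passed as lower in Het. Alternatives were other scalings, DESeq2 1.42.0, limma 3.58.1, filters, thresholds, a replicate block, covariates and each library left out. The sex score sets the Y-linked genes Uty, Kdm5d, Ddx3y and Eif2s3y (average log2 CPM) against Xist. Promoter windows are from RefSeq (GRCm38.p6); for 28 of 31 windows the bases after the start were found at the start of a GENCODE transcript. Floors cover counting error only.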

Additional observations from a re-analysis of the deposited data

Results flagged for a closer look

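In 3 of 66 groups of values, a library lay far from the rest of its group by Dixon's test, where chance gives about 1 in 20 groups. Lyz2 was at 30.0 CPM in WT 2, against 86.3 to 97.1 CPM in the other WT libraries. Aif1 was at 0.537 CPM in Het 4, against 1.37 to 1.83 CPM in the other Het libraries. Tyrobp was at 6.83 CPM in Het 4, against 11.1 to 13.2 CPM in the others. WT 2 and Het 4 were also the libraries with the lowest average of the 30 tested macrophage genes, which includes Lyz2, Aif1 and Tyrobp themselves.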

How the results depend on the processing

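None of the 30 tested genes was called lower in Het under any setting. Of the 2 called higher, 0 passed with the replicate block (Csf1 0.70, adjusted p = 0.0639; Mertk 0.55, adjusted p = 0.0624), with the column-name number as a covariate (adjusted p = 0.0791 and 0.0564), in the Xist-positive libraries (0.37 and 0.0944) and without WT 1 and WT 2 (0.141 and 0.0574); 1, Mertk, passed with the sex score and with the macrophage score; leaving out single libraries gave 1 to 3. The cause of these lost calls was not tested. The Xist-positive subset and the subset without WT 1 and WT 2 also hold fewer libraries. The labels do not explain the column-name number. It is 7 for WT 1, 2, 4 and 5 and for Het 3 and 6, and 6 for the others. The number is thus partly confounded with genotype. Replicate numbers are not stated to pair animals. Same-numbered libraries had correlations of -0.21 to 0.06 in their deviations from the group means. Over all genes, 391 rose and 351 fell as reported, against 177 and 152 with the block, 206 and 209 with the column-name number, 19 and 15 among Xist-positive libraries, 62 and 61 with the sex score, 238 and 194 without WT 1 and WT 2 and 654 and 641 by DESeq2.

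Signs of uncalled genes turned in some fits. Without WT 1 and WT 2 the log2 fold changes were -0.13 for Csf1r, -0.26 for Aif1, -0.017 for Laptm5, -0.23 for Cybb, -0.12 for C1qb, -0.074 for Pf4 and -0.33 for Ms4a7. With the sex score they were 0.26 for Cd68, -0.23 for Ptprc, -0.082 for Laptm5 and 0.065 for Cx3cr1, and in the Xist-positive libraries 0.26, -0.24, -0.11 and 0.14. Cd68 was at 0.027 with the column-name number, Ptprc at -0.086 with the replicate block and -0.020 with the lymphocyte score, and Cybb at -0.14 with the block. Leaving out single libraries gave -0.17 to 0.12 for Cd68, -0.20 to 0.34 for Ptprc, -0.10 to 0.36 for Cybb, -0.10 to 0.45 for C1qb and -0.23 to 0.35 for Ms4a7. Cd163 alone among the uncalled genes passed in any fit (without WT 4).

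The log2 ratio of Csf1 to Csf1r differed by 0.33 to 0.55 over single libraries left out. That of Cd74 to Csf1r differed by -2.42 to -1.90, and by -2.15 in the Xist-positive libraries and -1.75 without WT 1 and WT 2, with exact permutation p adjusted over 3 ratios of 0.286 and 0.0714; the smallest unadjusted p these smaller subsets allow is 0.0952 and 0.0238. Depth limits Spi1, Itgam, Trem2, Ccr2, Folr2 and the 4 untested genes, with few counts per library.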
